A study of Mus musculus with 4 samples.

Results

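The transcripts of 9 channels that work against or alongside the sodium leak were measured in mouse olfactory bulbs: *Kcnk1*, *Kcnk2*, *Kcnk3*, *Kcnk9*, *Kcnk10* and *Kcnk12* of the two-pore potassium family, and *Hcn2*, *Hcn3* and *Hcn4* of the HCN family. They were taken by symbol, and all 9 are among the 15818 genes of the deposited table. The tissue came from *Unc80* G/G mice, in which the edited codon was changed to encode glycine as if always edited, and from *Unc80* S/S mice, in which a synonymous change keeps it a serine codon that cannot be edited. Both are homozygous CRISPR/Cas9 knock-ins made in B6D2F1 embryos, so neither is wild type. The study used male mice aged 2 to 5 months. Each genotype has 2 libraries. The study states that 3 mice were pooled to a sample. The sample number it gives per genotype is larger than these 2 libraries, and how they relate was not settled here. If each library is such a pool, p-values here measure how pools differ, which may not be how single mice differ. The methods name a stranded total RNA kit and the labels a kit for mRNA, which was not settled here.

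The libraries held 35465913 to 38051810 reads. The deposited table gives the authors' mean of each genotype in CPM (counts per 1e6 counted reads), with no error and no value per library. The whole reads of each library could be worked out from the means of 2219 genes, among them *Kcnk9*, *Hcn4* and *Kcnk12*. The reads of *Kcnk3* came out in *Unc80* G/G alone, and those of *Kcnk1*, *Kcnk2*, *Kcnk10*, *Hcn2* and *Hcn3* in neither genotype. Of the pair of libraries of a genotype, the one with more counted reads is called deeper and the other shallower, and per-library values are given in that order. Genes listed for bulb cell types were present. *Gad1*, listed for granule and periglomerular cells, had 1606 CPM in *Unc80* G/G and 1619 CPM in *Unc80* S/S. *Cdhr1*, listed for mitral and tufted cells, had 539.9 and 566.5 CPM. Over 11 lists of cell type markers (61 entries in the table), no gene listed for bulb neurons, sensory axons, glia or endothelium was past 1.2-fold. Past it were *Ttr* (3.64 CPM in *Unc80* G/G and 0.880 CPM in *Unc80* S/S), *Clic6* and *Tmem72* (all 3 higher in *Unc80* G/G) and *Aqp1* (lower) of 5 choroid plexus genes, *Acta2* and *Tagln* (lower) of 7 pericyte and smooth muscle genes, *Neurod6* (lower) of 4 frontal cortex genes and *Drd1* (lower) of 5 striatum genes. Of all genes, 5.74% were past 1.2-fold and 18.1% past 1.1-fold, in either direction. Each of these markers except *Aqp1* was under 5 CPM in both genotypes. *Aqp1* was listed under choroid plexus alone, though its direction was opposite to that of *Ttr*, *Clic6* and *Tmem72*. Which cells its reads came from was not tested. The libraries of the genotypes overlapped in CPM for *Neurod6* (46 and 28 reads in *Unc80* G/G, 62 and 35 in *Unc80* S/S). They also overlapped for *Clic6* (99 and 59 reads, against 55 and 67), and did not for *Ttr* and *Aqp1*. Of the 4 sensory axon genes, 2 were higher past 1.1-fold and 1 was lower (median log2 ratio of the list 0.12). *Omp* had 110.2 CPM in *Unc80* G/G and 99.6 CPM in *Unc80* S/S, *Gng13* 33.4 and 29.1 CPM, and *Cnga2* 1.34 and 1.57 CPM. Of 7 astrocyte and ensheathing cell genes, 1 was lower past 1.1-fold. It was *Npy*, with 40.5 CPM in *Unc80* G/G and 45.7 CPM in *Unc80* S/S. Its libraries did not overlap in CPM (1019 and 1011 reads in *Unc80* G/G, against 1224 and 1142 in *Unc80* S/S). Both *Unc80* G/G libraries were lower, as in 14.8% of the recovered genes. Past 1.1-fold, 5 of the 7 pericyte and smooth muscle genes were lower and none was higher (median log2 ratio of the list -0.24). Of these 5, *Kcnj8*, *Acta2*, *Myh11* and *Tagln* had at most 6.62 CPM in either genotype. Of the choroid plexus genes, 3 were higher and 2 lower (median 0.41). Their summed levels, 133.0 CPM in either genotype for pericytes and smooth muscle and 38.3 CPM in *Unc80* G/G and 40.1 CPM in *Unc80* S/S for choroid plexus, are mostly those of *Rgs5* (89.9 CPM in *Unc80* G/G and 84.3 CPM in *Unc80* S/S) and *Aqp1* (27.02 CPM in *Unc80* G/G and 32.9 CPM in *Unc80* S/S). The part of these genes in the values of the channels was not tested. In bulk tissue, fewer cells of a type and less RNA per cell cannot be told apart.

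The resting potential of a neuron is a balance of leaks. Sodium entering through NALCN, the channel that UNC80 assists, depolarizes the cell, while potassium leaving through two-pore channels holds it negative. HCN channels open when the membrane becomes more negative, carry a mixed sodium and potassium current that pulls it back, and are sensitized by cyclic AMP. In the olfactory bulb this current is known for shaping rhythmic firing, in particular in external tufted cells.

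The families differ in how the pore is built. A two-pore subunit carries a pair of pore loops, each with its own potassium selectivity filter, and channels are dimers. An HCN subunit carries 1 loop, and channels are tetramers. In the coding sequences of GENCODE M21 a search of the translated frame found 2 filter triplets (glycine, then tyrosine, phenylalanine or leucine, then glycine) after a threonine and any residue in each of the 6 two-pore genes. They are shown because the paired filters are what sets this family apart. Each line gives 27 bases of the coding strand, 5′ to 3′, with the 9 bases of the filter triplet in capitals and GRCm38 coordinates, which for the first filters include an intron.
*Kcnk1* first filter (chr8:125995802-126025025, plus strand, exons 1 and 2): ctctccaccacaGGCTATGGCcacacg
*Kcnk1* second filter (chr8:126025323-126025349, plus strand, exon 2): ctgagcaccatcGGCCTGGGGgactat
*Kcnk2* first filter (chr1:189258885-189295606, minus strand, exons 3 and 4): atcacaaccataGGATTTGGAaacatc
*Kcnk2* second filter (chr1:189256575-189256601, minus strand, exon 5): ctgacgaccattGGATTTGGAgactac
*Kcnk3* first filter (chr5:30588587-30621904, plus strand, exons 1 and 2): atcaccaccatcGGCTATGGTcatgcg
*Kcnk3* second filter (chr5:30622196-30622222, plus strand, exon 2): ctcaccaccatcGGCTTCGGCgactat
*Kcnk9* first filter (chr15:72513031-72546009, minus strand, exons 1 and 2): atcacaactatcGGATATGGAcatgct
*Kcnk9* second filter (chr15:72512713-72512739, minus strand, exon 2): ttgactactataGGGTTCGGCgatttt
*Kcnk10* first filter (chr12:98490052-98496205, minus strand, exons 3 and 4): atcacaaccataGGGTATGGGaatatt
*Kcnk10* second filter (chr12:98440599-98440625, minus strand, exon 5): ctgaccacagtaGGCTTTGGTgatttt
*Kcnk12* first filter (chr17:87746828-87797076, minus strand, exons 1 and 2): gtgtcgaccataGGTTTCGGCatgaca
*Kcnk12* second filter (chr17:87746447-87746473, minus strand, exon 2): ttcagcaccatcGGCTTCGGGgacctg

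In all 6 two-pore genes the first triplet is interrupted by an intron after its first base, while the second triplet lies within a single exon. Tyrosine stands in the middle of the first filter of *Kcnk1*, *Kcnk3*, *Kcnk9* and *Kcnk10*, phenylalanine in the first filter of *Kcnk2* and *Kcnk12*, and the second filter has phenylalanine in each two-pore gene except *Kcnk1*, which has leucine. No exon base of any of the 9 genes is shared with another gene on the same strand.

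Each of the 9 channels had similar means in the 2 genotypes. No member was past 1.2-fold in either direction, beside 5.74% of all genes and 1.49% of the 11624 genes within the members' range of abundance (4.08 to 152.7 CPM). None was past 1.1-fold or 1.5-fold either, beside 18.1% and 0.518% of all genes. Both shares are over all genes, which passed 1.2-fold more often than the genes in that range. Past a difference of 5%, a limit set after the values were seen, were 2 of 9 members, where 39.7% of all genes and 34.5% of genes in that range were past it. The mean of *Kcnk1* was the higher one in *Unc80* G/G (19.4% of all genes were higher by this much) and that of *Kcnk3* the lower one (20.3% were lower). In sign alone, 6 members had the lower mean in *Unc80* G/G and 3 the higher, and 52.8% of all genes had the lower. The median log2 ratio of the members was -0.02, beside -0.01 over all genes.

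**Figure D1:**
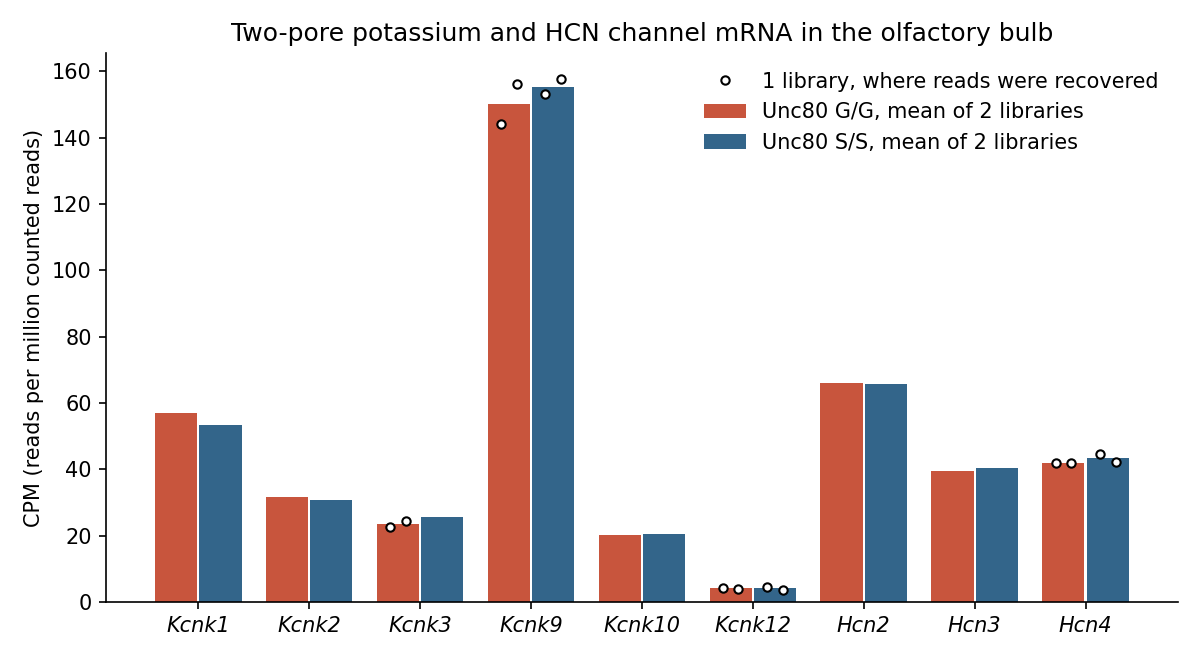
Mean CPM of each channel (y axis) in *Unc80* G/G (left bar of each pair) and *Unc80* S/S bulbs (right bar), with open circles for single libraries where reads could be recovered. The bars of a pair lie within 10% of each other for every channel, from 4.05 and 4.11 CPM for *Kcnk12* to 150.1 and 155.3 CPM for *Kcnk9*.

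The acid-sensitive pair, *Kcnk9* (TASK-3) and *Kcnk3* (TASK-1), which give neurons a background conductance that closes at low external pH and under many neurotransmitters, both had lower means in *Unc80* G/G. *Kcnk9* lies on the minus strand of chromosome 15 (72501089 to 72546340). It had 144.1 and 156.1 CPM in the *Unc80* G/G libraries (3652 and 3861 reads), against 153.1 and 157.6 CPM in the *Unc80* S/S libraries (4053 and 3978 reads). The genotypes overlapped, since 1 *Unc80* G/G library lay between both *Unc80* S/S libraries. The means were 150.1 ± 8.48 CPM in *Unc80* G/G and 155.3 ± 3.22 CPM in *Unc80* S/S (SD, n = 2 libraries each). The log2 fold change from edgeR's quasi-likelihood test was -0.05 ± 0.05 (SE; 95% interval -0.15 to 0.05, adjusted p = 0.988), and -0.11 without the shallower *Unc80* G/G library (adjusted p = 0.869) and 0.01 without the deeper (adjusted p = 0.992). *Kcnk3* lies on the plus strand of chromosome 5 (30588170 to 30625271). It had 22.6 and 24.3 CPM in the *Unc80* G/G libraries (574 and 601 reads; mean 23.5 CPM), against the authors' mean of 25.7 CPM in *Unc80* S/S. Both *Unc80* G/G libraries lay below that mean, whose 2 libraries could not be told apart. How many of all genes show this order was not counted, so no weight can be put on it. The log2 ratio of *Kcnk3* was -0.13, the largest of the 9 in size, with a counting interval of -0.25 to -0.02 that leaves out the spread between pools. For that spread, the 2 libraries of a genotype differed by a median of 1.045-fold over 562 recovered genes of 20 to 160 CPM in *Unc80* G/G and of 1.037-fold over 556 such genes in *Unc80* S/S, and 95% of these genes differed by up to 1.16-fold in either genotype. Means of 2 libraries spread less than single libraries. Scaled to the difference of such means, this spread is 0.15 on the log2 scale (1.11-fold). That size comes from all these genes together and was not matched to the abundance of any single gene. The log2 ratio of *Kcnk3* came close to that size without passing it, and no test of this gene was possible.

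*Kcnk1* (TWIK-1), a weakly conducting channel of neurons and astrocytes, was the member with the largest upward difference. It lies on the plus strand of chromosome 8 (125995170 to 126030685) and had a mean of 56.9 CPM in *Unc80* G/G and 53.3 CPM in *Unc80* S/S, a ratio of 1.07. The log2 ratio was 0.09 with a counting interval of 0.02 to 0.17, on about 2851 and 2757 reads. The log2 ratio is smaller than the 0.15 to which the spread between pools scales for means of 2 libraries. That size was not matched to the abundance of *Kcnk1*, and no test was possible without values per library.

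The mechanically and lipid-gated pair, *Kcnk2* (TREK-1) and *Kcnk10* (TREK-2), showed the smallest differences among the two-pore members along with *Kcnk12*. *Kcnk2* (minus strand of chromosome 1, 189207930 to 189402273) had a mean of 31.6 CPM in *Unc80* G/G and 30.8 CPM in *Unc80* S/S (log2 ratio 0.04, counting interval -0.07 to 0.14). *Kcnk10* (minus strand of chromosome 12, 98429437 to 98578310) had a mean of 20.03 CPM in *Unc80* G/G and 20.3 CPM in *Unc80* S/S (log2 ratio -0.02, counting interval -0.15 to 0.10). Both intervals hold 0. *Kcnk12* (THIK-2), a subunit that passes little current when expressed alone, lies on the minus strand of chromosome 17 (87745801 to 87797994). It had 4.103 and 4.002 CPM in the *Unc80* G/G libraries (104 and 99 reads), against 4.49 and 3.72 CPM in the *Unc80* S/S libraries (119 and 94 reads). The *Unc80* S/S libraries lay on either side of both *Unc80* G/G libraries. The edgeR log2 fold change of *Kcnk12* was -0.02 ± 0.16 (SE; 95% interval -0.36 to 0.32, adjusted p = 0.993), so a difference of 1.2-fold was not detectable at this depth. With the deeper *Unc80* S/S library left out it was 0.12 (adjusted p = 0.988), and with the shallower left out -0.15 (adjusted p = 0.991).

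**Figure D2:**
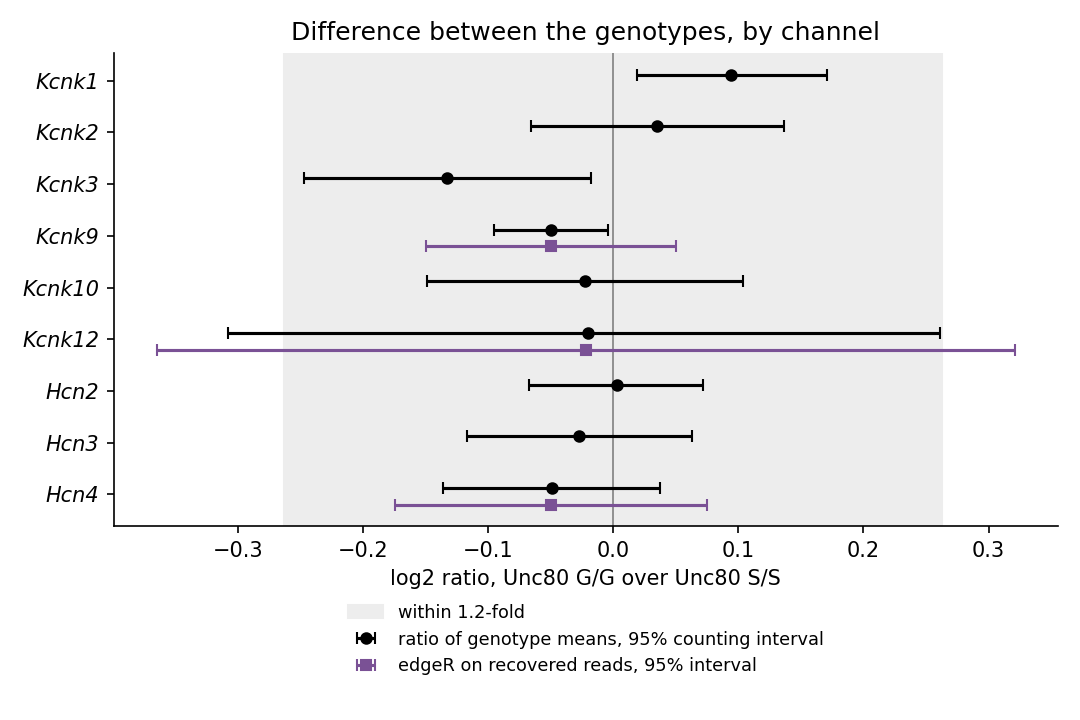
Log2 ratio of *Unc80* G/G over *Unc80* S/S (x axis) for each channel, with black circles for the ratio of the genotype means and its 95% counting interval, and squares for edgeR on recovered reads with its 95% interval. All 9 ratios lie inside the grey band of 1.2-fold, from -0.13 for *Kcnk3* to 0.09 for *Kcnk1*, and the edgeR intervals of *Kcnk9*, *Kcnk12* and *Hcn4* hold 0.

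Among the HCN channels, *Hcn2* was nearly equal between the genotypes and *Hcn3* and *Hcn4* had slightly lower means in *Unc80* G/G. *Hcn2*, which opens at intermediate speed and responds strongly to cyclic AMP, lies on the plus strand of chromosome 10 (79716634 to 79736108). Its mean was 65.9 CPM in *Unc80* G/G and 65.7 CPM in *Unc80* S/S (log2 ratio 0.0026, counting interval -0.07 to 0.07). *Hcn3*, which responds little to cyclic AMP, lies on the minus strand of chromosome 3 (89146074 to 89160196) and had a mean of 39.5 CPM in *Unc80* G/G and 40.2 CPM in *Unc80* S/S (log2 ratio -0.03, counting interval -0.12 to 0.06). *Hcn4*, the slow pacemaker channel best known from the sinoatrial node, lies on the plus strand of chromosome 9 (58823412 to 58863175). It had 41.90 and 41.88 CPM in the *Unc80* G/G libraries (1062 and 1036 reads), against 44.4 and 42.2 CPM in the *Unc80* S/S libraries (1177 and 1066 reads). The genotypes did not overlap, with both *Unc80* G/G libraries lower, as in 14.8% of the recovered genes, and 32.5% of recovered genes did not overlap in either direction. The means of *Hcn4* were 41.9 ± 0.015 CPM in *Unc80* G/G and 43.3 ± 1.56 CPM in *Unc80* S/S (SD, n = 2 libraries each). The SD of *Unc80* G/G is smaller than counting error alone on 1062 and 1036 reads, so it understates the spread between pools. The edgeR log2 fold change was -0.05 ± 0.06 (SE; 95% interval -0.17 to 0.08, adjusted p = 0.990). With the deeper *Unc80* S/S library left out it was -0.01 (adjusted p = 0.988), and with the shallower left out -0.09 (adjusted p = 0.991).

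**Figure D3:**
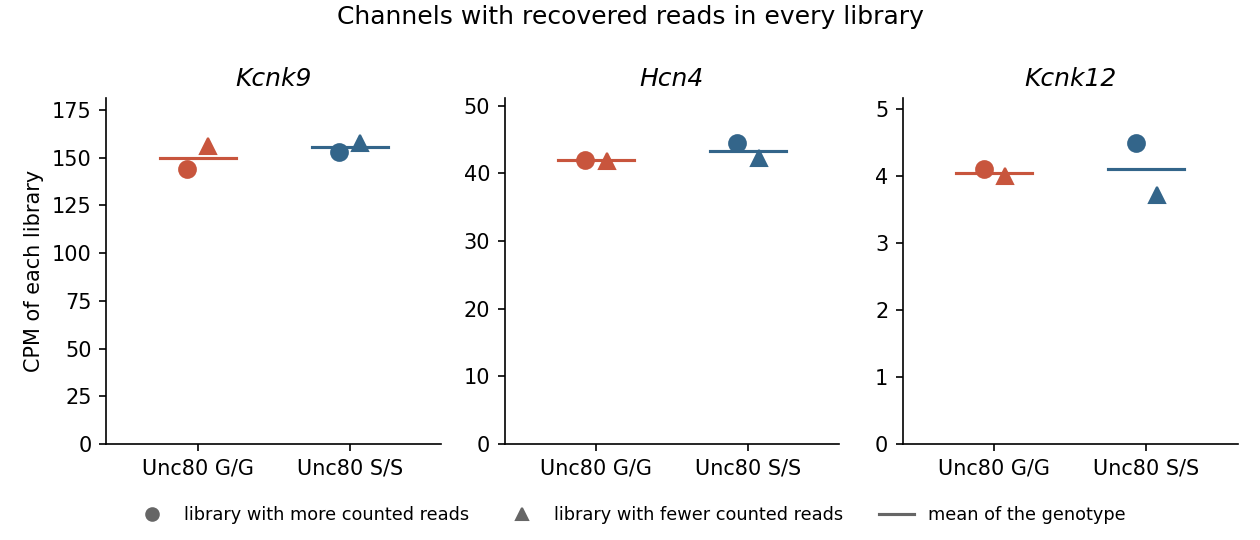
CPM of each library (y axis, from 0) for the 3 channels with recovered reads, *Unc80* G/G left and *Unc80* S/S right, with circles for the deeper library of a genotype, triangles for the shallower and lines for the mean. The genotypes overlap for *Kcnk9* and *Kcnk12*, while for *Hcn4* the *Unc80* G/G libraries (41.90 and 41.88 CPM) lie below those of *Unc80* S/S (44.4 and 42.2 CPM).

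Over the recovered genes, edgeR called 0 of the 3 tested members at an adjusted p under 0.05, beside 2 of 2219 genes (*Junb* and *Ttr*, 0.0901%), and 0 of the 3 had an unadjusted p under 0.05, beside 117 of the 2219 genes (5.27%). DESeq2 also called 0 of these 3, beside 1 of 2219 genes (*Junb*, 0.0451%). A p above the threshold does not show that levels were equal, and the edgeR intervals reach as far as -0.15 on the log2 scale for *Kcnk9* and -0.17 for *Hcn4*.

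Per kilobase of exon, which allows genes to be compared, *Kcnk1* was the most abundant of the 9 in both genotypes, at 25.5 CPM per kb in *Unc80* G/G and 23.9 CPM per kb in *Unc80* S/S. *Hcn2* followed with 20.6 CPM per kb in either genotype, *Kcnk9* with 12.2 CPM per kb in *Unc80* G/G and 12.6 CPM per kb in *Unc80* S/S, and *Hcn3* with 9.51 and 9.69 CPM per kb. *Hcn4* (6.85 and 7.08 CPM per kb), *Kcnk2* (6.39 and 6.24 CPM per kb) and *Kcnk3* (5.90 and 6.47 CPM per kb) came next, and *Kcnk10* (2.28 and 2.32 CPM per kb) and *Kcnk12* (2.06 and 2.08 CPM per kb) were lowest. Neighbors from *Hcn4* to *Kcnk3* were 1.07 to 1.08 times apart in *Unc80* G/G, *Kcnk10* and *Kcnk12* were 1.11 times apart, and *Kcnk2* and *Kcnk3* changed places in *Unc80* S/S. *Kcnk1* and *Hcn2* were 1.24 times apart in *Unc80* G/G and 1.16 times in *Unc80* S/S. These steps were not tested, since the error of a level per kilobase also holds the choice of length. The place of *Kcnk2* depends on the length used: over the 1548 bases of its longest coding transcript in place of 4943 bases of all its exons, its level was 20.4 CPM per kb in *Unc80* G/G and 19.9 CPM per kb in *Unc80* S/S, the third highest.

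**Figure D4:**
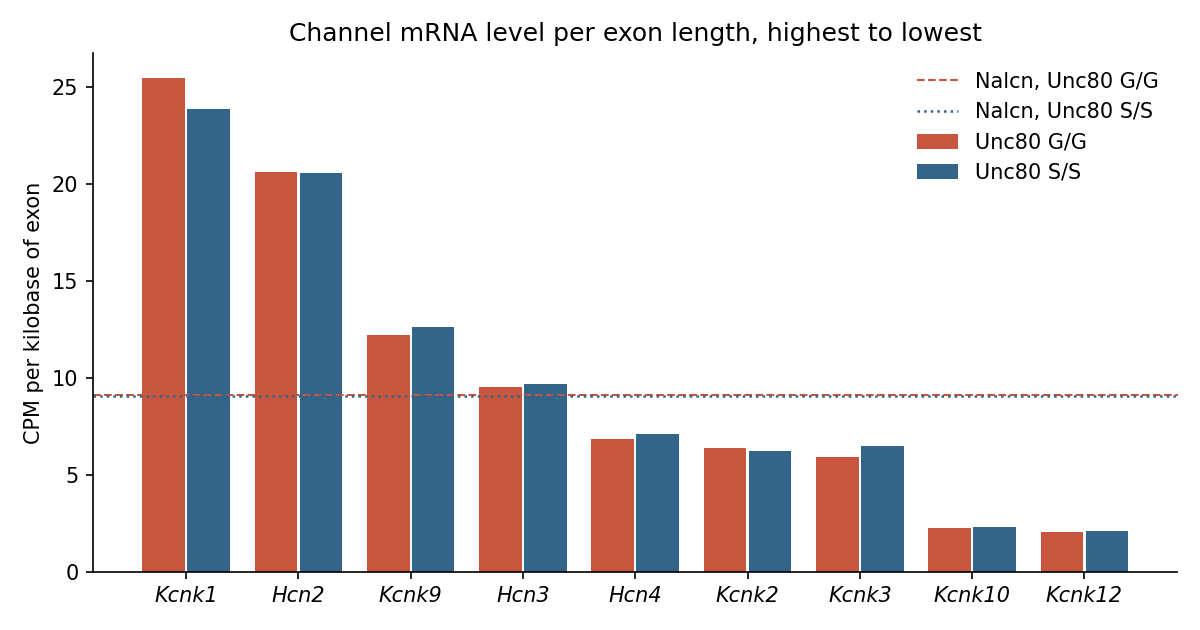
CPM per kilobase of exon (y axis) of the 9 channels from highest to lowest, *Unc80* G/G in the left and *Unc80* S/S in the right bar of each pair, with the level of *Nalcn* as a dashed line (*Unc80* G/G, 9.10) and a dotted line (*Unc80* S/S, 9.05). With this length, *Kcnk1*, *Hcn2*, *Kcnk9* and *Hcn3* lie above the *Nalcn* lines and the other 5 channels below them in both genotypes, which differs for *Kcnk9*, *Hcn3* and *Kcnk2* with the longest coding transcript.

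Levels were also set beside that of the sodium leak channel. *Nalcn*, the pore of the sodium leak channel, had 9.10 CPM per kb in *Unc80* G/G and 9.05 CPM per kb in *Unc80* S/S. *Kcnk1* stood at 2.80 times the *Nalcn* level in *Unc80* G/G and 2.64 times in *Unc80* S/S, *Hcn2* at 2.26 and 2.27 times, *Kcnk9* at 1.34 and 1.40 times, and *Kcnk3* at 0.649 and 0.715 times. These multiples depend on the length used for *Nalcn*, which has 14715 bases in all its exons and 7122 in its longest coding transcript. By the coding transcripts, *Nalcn* had 18.8 CPM per kb in *Unc80* G/G and 18.7 CPM per kb in *Unc80* S/S. *Kcnk1* then stood at 1.35 times *Nalcn* in *Unc80* G/G and 1.28 times in *Unc80* S/S, *Hcn2* at 1.096 and 1.1005 times, *Kcnk2* at 1.085 and 1.065 times, *Kcnk9* at 0.649 and 0.676 times, *Hcn3* at 0.525 and 0.538 times, and *Kcnk3* at 0.328 and 0.361 times. *Kcnk9* and *Hcn3* thus lay above *Nalcn* by one length and below it by the other, and *Kcnk2* the other way round, in both genotypes. By the length of all exons, the 6 two-pore members summed to 54.3 CPM per kb in *Unc80* G/G and 53.6 CPM per kb in *Unc80* S/S. The 3 HCN members summed to 37.0 and 37.3 CPM per kb. *Kcnk1* made up 46.9% of the two-pore sum in *Unc80* G/G and 44.5% in *Unc80* S/S, and *Hcn2* 55.8% and 55.1% of the HCN sum. Within the acid-sensitive pair, *Kcnk9* was 2.07 times *Kcnk3* per kilobase in *Unc80* G/G and 1.95 times in *Unc80* S/S. These sums, shares and ratios also depend on the length used. By the coding transcripts *Kcnk1* makes up less of the two-pore sum, since its own length does not change. *Kcnk2* rises from 6.39 to 20.4 CPM per kb in *Unc80* G/G and from 6.24 to 19.9 CPM per kb in *Unc80* S/S. These ratios of means carry no error, since most of their genes have no value per library.

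The relatives and partners of the 9 channels were listed as well. Of 8 other two-pore genes, 4 are in the table and none was past 1.2-fold. *Kcnk13* (THIK-1), which in the brain is known from microglia, had 12.4 CPM in *Unc80* G/G and 11.8 CPM in *Unc80* S/S, and *Kcnk5* (TASK-2) had 1.95 and 2.09 CPM. *Kcnk15* (TASK-5) had 201 and 176 reads in the *Unc80* G/G libraries, against 216 and 198 reads in the *Unc80* S/S libraries (edgeR log2 fold change -0.09, adjusted p = 0.990). *Kcnk6* (TWIK-2) had 93 and 88 reads in *Unc80* G/G, against 113 and 81 reads in *Unc80* S/S (edgeR log2 fold change -0.05, adjusted p = 0.990). All 4 stayed within 1.1-fold.

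Among the listed genes whose proteins act on HCN channels, *Lrmp* was the 1 past 1.2-fold. *Pex5l*, which encodes the HCN trafficking subunit TRIP8b, had 56.8 CPM in *Unc80* G/G and 56.7 CPM in *Unc80* S/S. *Lrmp*, whose protein reduces the cyclic AMP response of HCN4, had 1.80 CPM in *Unc80* G/G and 1.47 CPM in *Unc80* S/S, a ratio of 1.23 on about 90 and 76 reads. Its counting interval on the log2 scale, -0.17 to 0.75, holds 0. *Mrvi1*, which acts on HCN4 in the opposite direction, had 3.52 and 3.58 CPM.

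Of 14 inward rectifier potassium channel genes, which also hold the membrane near the potassium equilibrium, 12 are in the table and none was past 1.2-fold, with 6 higher and 6 lower in *Unc80* G/G and a median log2 ratio of 0.0003. *Kcnj10*, the main potassium channel of astrocytes, had 11097 and 11015 reads in the *Unc80* G/G libraries, against 11770 and 10825 reads in the *Unc80* S/S libraries (edgeR log2 fold change 0.02, adjusted p = 0.990). *Kcnj4* had 3834 and 3928 reads in *Unc80* G/G, against 4030 and 3821 reads in *Unc80* S/S (log2 fold change 0.03, adjusted p = 0.990, edgeR). *Kcnj3*, a subunit of G protein-gated channels, had 236.4 CPM in *Unc80* G/G and 237.8 CPM in *Unc80* S/S, and its partner *Kcnj9* had 49.8 and 49.1 CPM. The widest difference in this list, named for that after the values were seen, was that of *Kcnj8*, which is also on the pericyte list, with 2.12 CPM in *Unc80* G/G and 2.53 CPM in *Unc80* S/S (counting interval of the log2 ratio -0.64 to 0.12).

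Of 5 genes of the sodium leak complex, 4 are in the table, none past 1.1-fold. *Unc79* had 116.1 CPM in *Unc80* G/G and 120.3 CPM in *Unc80* S/S, and *Fam155a*, which encodes the extracellular subunit, had 86.3 and 92.2 CPM. *Fam155a* was the 1 gene of these 4 past a difference of 5%. Its log2 ratio was -0.096, with a counting interval of -0.155 to -0.036 that does not hold 0 but leaves out the spread between pools. That ratio is smaller in size than the 0.15 to which this spread scales, and no test was possible. The knock-in changes a codon, which a table of gene levels cannot show.

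**Figure D5:**
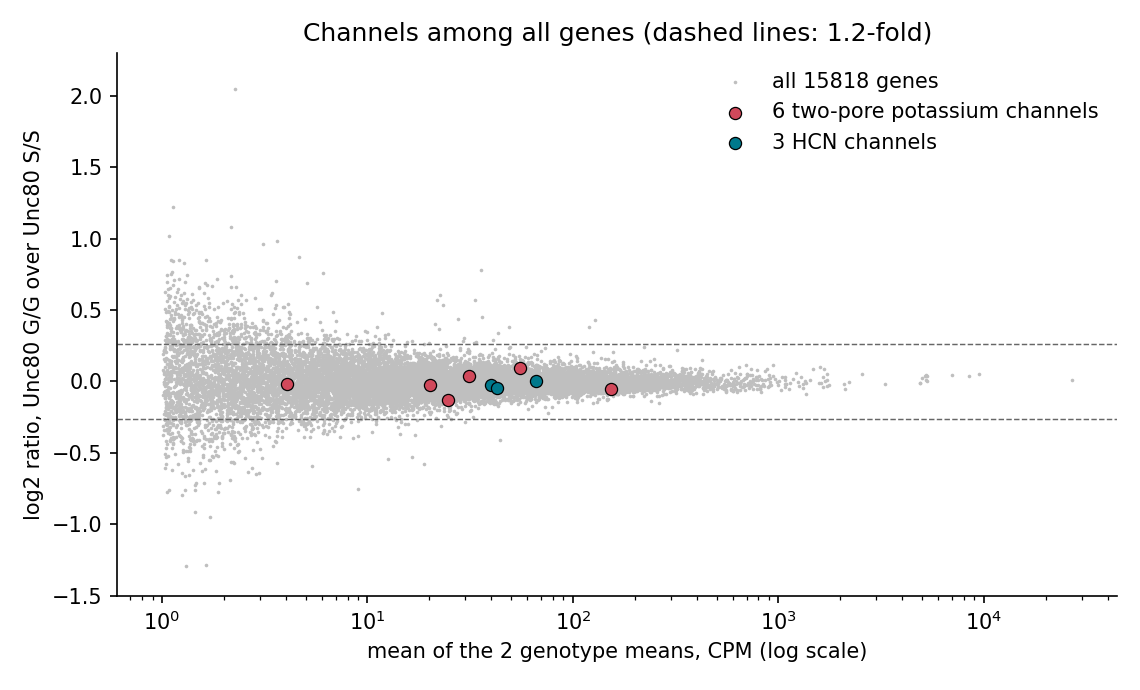
Log2 ratio of *Unc80* G/G over *Unc80* S/S (y axis) against the mean of both genotypes in CPM (x axis, log scale) for all 15818 genes in grey, with the 6 two-pore channels in red and the 3 HCN channels in teal; dashed lines mark 1.2-fold. The 9 channels lie between -0.13 and 0.09, inside the lines that 5.74% of all genes pass.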

How the data were processed

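Olfactory bulb RNA from *Unc80* G/G and *Unc80* S/S mice was sequenced as 4 libraries, 2 per genotype. Reads were trimmed, aligned to GRCm38 and compared by the authors with Partek Flow; the submitters' processing notes call the build mm10. For the aligner, annotation, normalization and test, nothing is given in the sources used here. The deposited files hold 1 count per library (its total reads) and, for 15818 genes, the authors' mean of each genotype in CPM. A further 4 columns hold the authors' own comparison (p-value, adjusted p-value, ratio and fold change) and were not used.

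A mean was resolved into the reads of its 2 libraries where a single pair of whole numbers fitted it, once an offset of 0.0001 CPM was removed, with a chance of another fit under 1e-04. This step was chosen with the values in view, and its script was tested on simulated data. It worked in both genotypes for 2219 genes, which lean to low abundance (median 5.87 CPM, beside 22.2 CPM over all genes). Library sizes were the counted reads so found, 25345718 (deeper) and 24738078 (shallower) for *Unc80* G/G and 26479648 (deeper) and 25238203 (shallower) for *Unc80* S/S. No replicate number could be tied to them. The tests per library that the design called for were therefore possible only for these genes. The main test was the quasi-likelihood test of edgeR 4.0.16 (Benjamini-Hochberg adjustment over the 2219 genes, threshold 0.05). Alternatives were limma 3.58.1 on log2(CPM + 1) and DESeq2 1.42.0, all run in R 4.3.3.

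The log2 ratio of the means, *Unc80* G/G over *Unc80* S/S, was taken with no pseudocount and read against a fold of 1.2. Its 95% interval is exact (Clopper-Pearson) on the reads behind both means, taken as mean times counted reads, and covers counting error only. Lengths, positions and coding sequence came from GENCODE M21 (GRCm38), in which 98.6% of the symbols named 1 gene. The genes named are the 9 members and, of each channel list, those past 1.2-fold and up to 4 of highest CPM; marker genes are named from their lists, some after their values were seen. Some items of these lists are not reported here. The members, the lists and the thresholds were chosen with earlier results of these data known. Other tools were Python 3.11.15 with pandas 2.3.3, numpy 2.4.6, scipy 1.17.1, biopython 1.88 and matplotlib 3.10.9.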

Additional observations from a re-analysis of the deposited data

How the results depend on the processing

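With a pseudocount of 0.1 or 1 CPM, or with centring on the median of all genes (log2 -0.01), the log2 ratio of every member moved by at most 0.0052 and stayed inside its counting interval. The number of members past the fold stayed at 0 for 1.1-fold and 1.5-fold and under those scalings, and was 2 at a difference of 5%, a limit added after the values were seen. The share of all genes past 1.2-fold was 1.07% once genes averaging under 5 CPM were left out, beside 5.74% without a filter. With the length of the longest coding transcript, 5 of the 9 members in *Unc80* G/G and 4 in *Unc80* S/S kept their place in the order of levels per kilobase. Over the recovered genes the count of calls was 2 with edgeR, 6 with TMM normalization, 1 with DESeq2 under either scaling, 0 once genes averaging under 5 CPM were left out (59 at an unadjusted p under 0.05; added after the data were seen) and 0 to 2 with 1 library left out. A filter of 50 reads removed no gene. None of these fits called *Kcnk9*, *Hcn4* or *Kcnk12*, of which *Kcnk12* was not tested above 5 CPM. With 1 library left out, the lone library is assumed to vary like the other genotype, and the edgeR log2 fold change was -0.11 to 0.0069 for *Kcnk9* (adjusted p 0.869 to 0.992), -0.15 to 0.12 for *Kcnk12* (0.988 to 0.999) and -0.09 to -0.01 for *Hcn4* (0.950 to 0.991). The sign turned for *Kcnk9* when the deeper *Unc80* G/G library was left out and for *Kcnk12* when the deeper *Unc80* S/S library was; the cause was not tested beyond that removal. No paired analysis was possible because the recovered libraries carry no replicate number. Depth limits *Kcnk12*, which rested on 94 to 119 reads per library.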
